A study of Mus musculus with 9 samples.

Results

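Isolated mid-density windows are 1 kb stretches of the autosomes that hold 20 to 39 CpG positions and lie away from CpG-dense windows, which stand here for CpG islands. CpG positions listed in either of 2 deposited tables of primordial germ cells were counted in windows that start at multiples of 1000. A window was taken when it held 20 to 39 positions, when none of the 5 windows on either side held 40 or more (called dense below), and when its listed sites averaged 8 reads or fewer in both tables. The rule used CpG positions and depth and no methylation level. It gave 62410 of the 2464573 windows with a listed position on the autosomes and the X, which is 2.69% of the 2317179 autosomal ones and 81.7% of the 76354 autosomal windows of 20 to 39 positions. Of the windows of that density, 13638 within the depth limit lay within 5 windows of a dense one and served for comparison, as did 500009 isolated windows of 10 to 19 positions.

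The cells came from female C57BL/6 embryos at embryonic day 13.5, either Tet1-null (Tet1 -/-, 5 libraries of 1400 to 4700 cells) or WT (wild type, 4 libraries of 1575 to 5251 cells). DNA was tagged with Tn5 transposase, treated with bisulfite, which leaves methylated cytosines as C, and sequenced. Levels below rest on reads that kept a C. They do not tell methylated cytosine from any oxidised form of it that also stays C. The deposited data hold 1 table per genotype, read here as a pool of its libraries, so every difference below is between 2 pools with no replicate check. The intervals cover counting error only. The Imprint kit converted 2 Tet1-null and 2 WT libraries and a lightning kit 3 and 2, and sequencing run 1 held WT only, so genotype, kit and run cannot be told apart in the pools. The labels do not say which libraries came from separate embryos, and the identity of the cells was not checked, since the tables hold no expression.

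Primordial germ cells give rise to eggs or sperm, and by this age they have lost most DNA methylation. Tet1 encodes an enzyme that oxidises 5-methylcytosine, a step on the way to its removal, so that germ cells lacking it are set against cells that have it. CpG islands are as a rule unmethylated in all cells, while most of the remaining genome is CpG-poor. Windows of intermediate CpG density away from islands are neither, and in mice they can hold enhancers, exons and transposable elements. No gene or repeat annotation of build mm9, the build of the tables, was used here, so what these windows contain is not described, and no sequence is shown.

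The level of a window or group is its methylated reads divided by all its reads, with a read counted once at each CpG site it covers. The isolated mid-density windows held 1503517 CpG positions. Of these, 1297866 were listed in the Tet1-null pool at 2.67 reads per listed site, and 1049110 in the WT pool at 2.05. The whole tables held 46716079 reads in the Tet1-null pool and 30386353 in the WT pool, a mean of 2.85 and 2.21 per site. On chrM, the mitochondrial genome, 1.29% of reads were methylated in the Tet1-null pool (Wilson 95% interval 1.201 to 1.38%) and 1.66% in the WT pool (1.52 to 1.80%).

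Methylation of the isolated mid-density windows was higher in the Tet1-null pool. Of 3460949 reads in the Tet1-null pool, 7.45% were methylated (Wilson 95% interval 7.43 to 7.48%), against 6.11% of 2149387 reads in the WT pool (6.08 to 6.14%). The difference was 1.35 percentage points (Newcombe 95% counting interval 1.303 to 1.39), or 1.22-fold (1.21 to 1.23). Over the 51020 members with enough reads in both pools to be compared singly (below), it was 1.08 points (1.03 to 1.12). At the 843459 sites with reads in both pools the levels were 7.14% and 5.88% in Tet1-null and WT, a difference of 1.26 points (1.21 to 1.31). Among those sites, ones at least 100 bp apart gave 0.807 points (0.732 to 0.882). A fragment is counted at fewer of them, but the choice also changes which sites are counted. How far each accounts for the smaller value was not tested. With density counted from positions listed in both pools, which selects 15656 windows, 7349 of them members, the difference was 0.267 points (0.211 to 0.324). Over autosomal windows outside this class the levels were 3.80% in the Tet1-null pool and 3.19% in the WT pool, a difference of 0.607 points.

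The Tet1-null level was the higher one on 19 of 19 autosomes, each with a counting interval above 0. By mean depth of both pools the difference lay between 1.09 points, in members of 1 to 1.5 reads per site, and 1.49 points, in members of 3 to 4. The difference between pools was smallest on chromosome 12, where the levels were 8.46% in the Tet1-null pool and 7.50% in the WT pool, a difference of 0.963 points (0.741 to 1.18). It was largest on chromosome 3, at 9.25% and 7.52%, a difference of 1.73 points (1.51 to 1.95). The order of the levels was another. In the Tet1-null pool they ran from 5.45% on chromosome 11 to 9.27% on chromosome 1, and in the WT pool from 4.38% on chromosome 19 to 7.85% on chromosome 1.

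**Figure D1:**
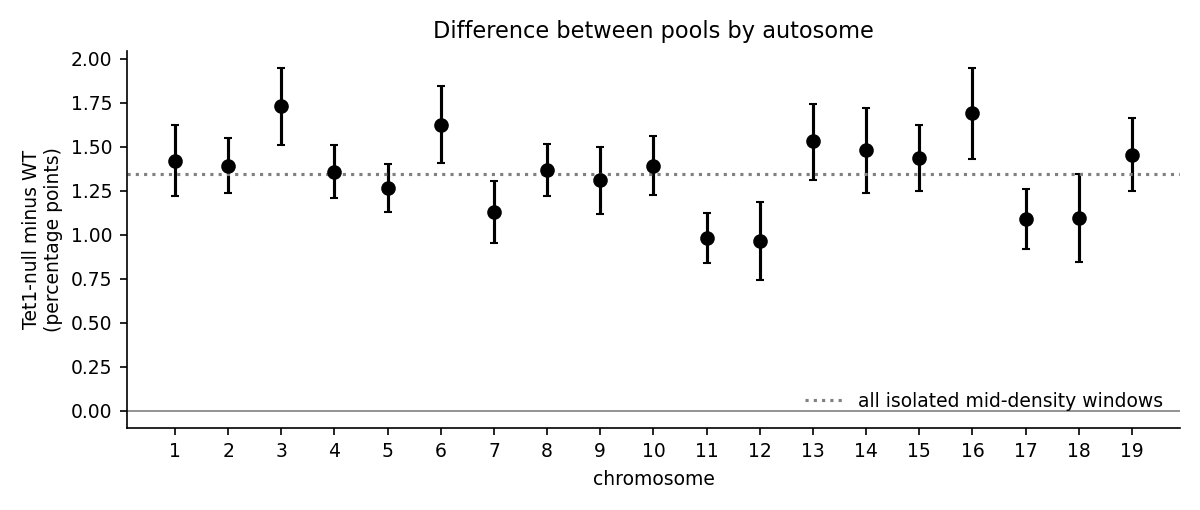
Level of isolated mid-density windows in the Tet1-null pool minus that in the WT pool, in percentage points, for each autosome. Points are the differences, bars the Newcombe 95% counting intervals, and the dotted line the value over all members, 1.35 points. All 19 intervals lie above 0, from 0.963 points on chromosome 12 to 1.73 points on chromosome 3.

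Most of these windows stood alone. The 62410 windows formed 52203 runs of adjacent members, of which 44102 were single windows, 6598 were pairs and 1503 held 3 or more windows. Single windows made up 70.7% of members, and 8.19% lay in runs of 3 or more. The longest run held 11 windows.

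Single windows were more methylated than windows in runs, and their difference between pools was larger. Single windows were at 8.05% in the Tet1-null pool and 6.51% in the WT pool, a difference of 1.54 points (1.49 to 1.59). Windows in runs of 2 or more were at 6.10% and 5.18% in Tet1-null and WT, a difference of 0.921 points (0.850 to 0.991). The rise of single windows exceeded that of windows in runs by 0.619 points (counting interval 0.531 to 0.707), and by 0.372 points (0.271 to 0.472) at sites with reads in both pools. By length of run there was no steady order of the differences, which were 0.877 points in runs of 2, 1.13 in runs of 3, 0.764 in runs of 4 or 5 and 1.23 in runs of 6 or more. With no dense window within 200, single windows were at 16.2% in the Tet1-null pool and 13.8% in the WT pool, and windows in runs at 14.6% and 14.2%.

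The longest runs were little methylated as a rule, and so was the typical member (below). In the 47 runs of 6 or more windows, the lowest, median and highest levels were 0.323%, 2.92% and 52.7% in the Tet1-null pool and 0%, 2.14% and 52.7% in the WT pool, and 26 of the 47 were higher in the Tet1-null pool. The run of 11 windows, on chromosome 4 from 149017001 to 149028000, contained 293 CpG positions, with 19 methylated reads of 701 in the Tet1-null pool (2.71%) and 6 of 452 in the WT pool (1.33%), a difference of 1.38 points whose interval, -0.435 to 3.03, included 0. Both runs of 10 windows lay on chromosome 12. The one from 112556001 to 112566000 had 37 methylated among 619 reads in the Tet1-null pool (5.98%) and 5 of 356 in the WT pool (1.40%), a difference of 4.57 points (2.13 to 6.87). The one from 114146001 to 114156000 was at 2.37% in the Tet1-null pool and 3.83% in the WT pool, which counting error cannot separate (-4.002 to 0.592 points). Of the next runs, that on chromosome 8 from 125413001 to 125421000 was at 4.67% and 0.769% in Tet1-null and WT (1.83 to 6.04 points), and that on chromosome 2 from 76574001 to 76582000 at 4.47% and 2.36% (-0.412 to 4.81 points).

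Methylation of the windows was higher at greater distance from the nearest dense window. With a dense window 6 to 10 windows away, members were at 4.41% in the Tet1-null pool and 3.62% in the WT pool, a difference of 0.793 points (0.687 to 0.898). With a dense window 51 to 100 away the levels reached 6.50% and 5.13%, a difference of 1.37 points (1.28 to 1.46). With none within 200 windows the levels reached 15.9% and 13.9%, a difference of 1.95 points (1.79 to 2.10). The difference between pools over 100 windows away exceeded that at 6 to 20 windows by 0.850 points (0.731 to 0.969), and by 0.643 points (0.507 to 0.779) at sites with reads in both pools. As a ratio it did not grow, since Tet1-null over WT was 1.22 at 6 to 10 windows, 1.29 at 21 to 50 and 1.14 beyond 200. In isolated windows of 10 to 19 positions the same distances gave a smaller range, from 3.58% in the Tet1-null pool and 2.81% in the WT pool at 6 to 10 windows to 6.04% and 5.14% beyond 200.

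**Figure D2:**
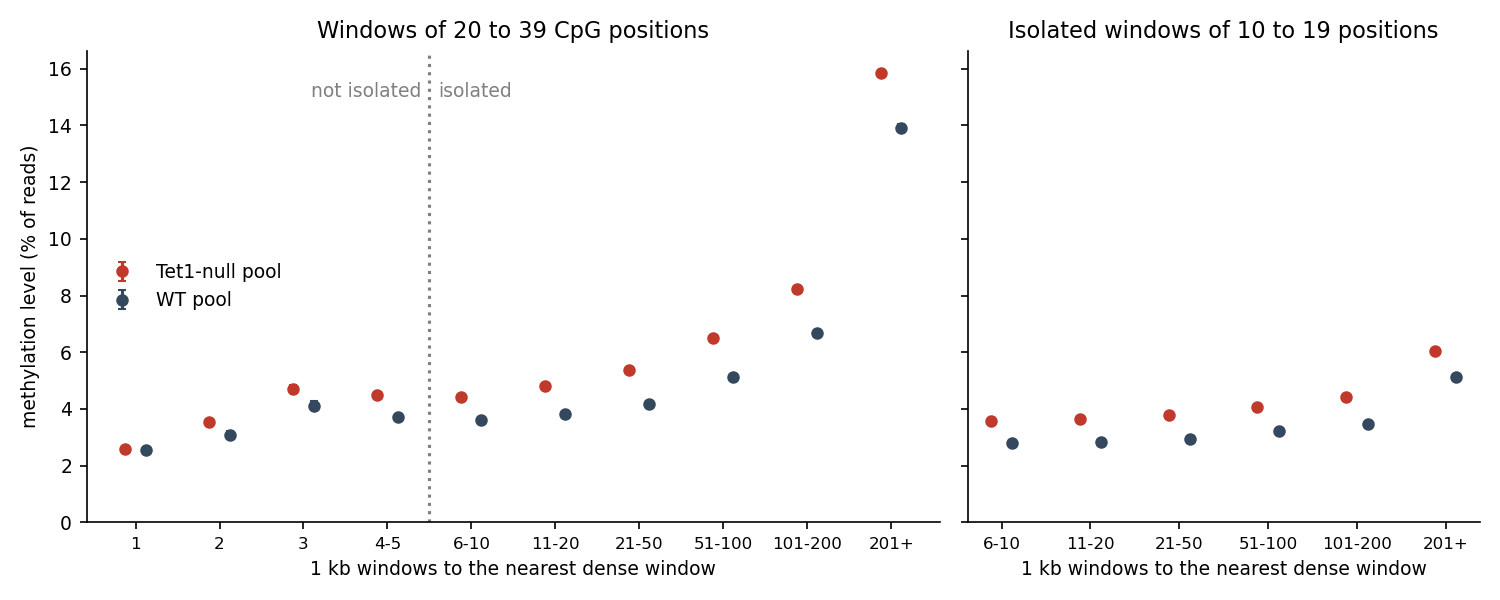
Methylation level (percent of reads) by the number of 1 kb windows to the nearest window of 40 or more CpG positions, for autosomal windows of 20 to 39 positions (left) and isolated windows of 10 to 19 positions (right). Points are the Tet1-null pool and the WT pool, with Wilson 95% counting intervals mostly smaller than the points; the dotted line marks where isolation begins. Levels at 20 to 39 positions rise to 15.9% and 13.9% beyond 200 windows.

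Levels just inside and just outside the limits of the class were close at the lower density limit and at the isolation limit. Windows just above the upper density limit, which were not chosen for isolation, were lower. Isolated windows of 19 positions, just outside, were at 5.77% in the Tet1-null pool and 4.60% in the WT pool, and members of 20 positions were at 5.98% and 4.80%. At the upper limit, members of 39 positions were at 6.93% and 6.53% in Tet1-null and WT, and windows of 40 positions at 4.18% and 3.54%. The windows of 40 positions were taken at any distance from another dense window, so these sets differ in isolation as well as density. Near a dense window, windows of 35 to 39 positions were at 2.82% and 2.77% in Tet1-null and WT, against 7.66% and 6.79% in members of that density. Windows of 20 to 39 positions with a dense window 5 away were at 4.63% and 3.47%, and members with one 6 away at 4.25% and 3.23%. The depth limit left out 84 isolated windows, which were at 13.2% in the Tet1-null pool and 13.7% in the WT pool, and the 84 members over 6 reads per site in a pool were at 20.6% and 18.9%.

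Windows of the same density near a dense window were less methylated and differed less between pools. They were at 3.32% in the Tet1-null pool and 3.02% in the WT pool, a difference of 0.297 points (0.234 to 0.359). The rise of isolated windows exceeded theirs by 1.05 points (0.974 to 1.12), and it did so within each density class, by 0.814 points (0.701 to 0.927) at 20 to 24 positions, 1.16 at 25 to 29, 1.15 at 30 to 34 and 0.826 (0.587 to 1.06) at 35 to 39. Directly next to a dense window, where 7718 of the 13638 lay, the levels were 2.59% and 2.55% in Tet1-null and WT, and the interval of their difference, -0.0266 to 0.123 points, included 0. The contrast was not seen across the isolation limit. With a dense window 4 or 5 away the levels were 4.48% and 3.72%, a difference of 0.764 points (0.608 to 0.919). Members 6 to 10 away were at 4.41% and 3.62%, a difference of 0.793 points. Isolated windows of 10 to 19 positions were at 4.38% in the Tet1-null pool and 3.52% in the WT pool, a difference of 0.858 points (0.843 to 0.873), which the rise of the mid-density windows exceeded by 0.487 points (0.443 to 0.532). Counting density from positions listed in both pools left an excess over windows near a dense one of 0.264 points (0.00621 to 0.523) and turned that over windows of 10 to 19 positions to -0.652 (-0.711 to -0.592); on sites 100 bp apart these were 0.576 and 0.211 points. As a ratio the order was different, since Tet1-null over WT was 1.22 in the isolated mid-density windows, 1.10 (1.08 to 1.12) near a dense window and 1.24 (1.24 to 1.25) at 10 to 19 positions.

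Within the isolated class, level changed with density but the difference between pools in points changed little below 35 positions. Members of 20 to 24 positions, 66.3% of the class, were at 6.65% in the Tet1-null pool and 5.29% in the WT pool. Members of 30 to 34 positions were at 9.21% and 7.92%, and those of 35 to 39 at 7.66% and 6.79%. The differences were 1.36, 1.37, 1.29 and 0.873 points from the sparsest class to the densest, the last with an interval of 0.685 to 1.06. The ratio of Tet1-null over WT went down in the same order, from 1.26 to 1.19, 1.16 and 1.13.

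Methylation within these windows was higher the closer a CpG lay to its neighbour, up to a spacing of 50 to 99 bp. Sites of member windows whose nearest listed CpG was 2 bp away, as in a CGCG sequence, were at 14.9% in the Tet1-null pool and 11.9% in the WT pool, a difference of 2.98 points (2.75 to 3.20). At 10 to 24 bp the levels were 6.39% and 5.39%, a difference of 1.001 points (0.932 to 1.07). At 50 to 99 bp they were 3.87% and 3.54%, a difference of 0.338 points (0.223 to 0.452). The rise at sites 2 to 9 bp from the nearest exceeded that at sites 25 bp or more away by 1.66 points (1.56 to 1.76). In members whose flanking windows were under 4% the excess was 1.23 points (1.14 to 1.32), and with flanks at 8% or more it was 3.52 points (2.88 to 4.15). The ratio of Tet1-null over WT was instead lower with flanks at 8% or more. Against flanks under 4% it was 1.08 against 1.499 at 2 bp and 1.08 against 1.54 at 3 to 5 bp. It was 1.02 against 1.45 at 6 to 9 bp and 0.939 against 1.25 at 25 bp or more. With flanks at 8% or more the direction differed by spacing. Sites 2 to 9 bp from the nearest were at 44.5% in the Tet1-null pool and 42.1% in the WT pool, a rise of 2.39 points (1.96 to 2.81), while sites 25 bp or more away were at 17.2% and 18.4%, which is -1.13 points (-1.60 to -0.664).

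The gradient with spacing was present in isolated windows of 10 to 19 positions too and small near dense windows. At 2 bp the difference between pools was 2.99 points in isolated windows of 10 to 19 positions (11.9% in the Tet1-null pool and 8.92% in the WT pool) and 0.137 points near dense windows (4.39% and 4.25%, interval -0.122 to 0.392). At 25 to 49 bp it was 0.549 points in the isolated mid-density windows and 0.553 in isolated windows of 10 to 19 positions. Between these spacings the isolated mid-density windows rose more in points, by 2.37 against 1.70 at 3 to 5 bp. Their ratio of Tet1-null over WT was the lower one there. It was 1.27 against 1.33 at 3 to 5 bp, 1.23 against 1.29 at 6 to 9 bp and 1.19 against 1.25 at 10 to 24 bp. Sites 2 to 9 bp from the nearest made up 41.5% of positions in the mid-density windows and 23.4% in windows of 10 to 19 positions. A single sequenced fragment covers several closely spaced sites, so the counting intervals are too narrow where sites are close.

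**Figure D3:**
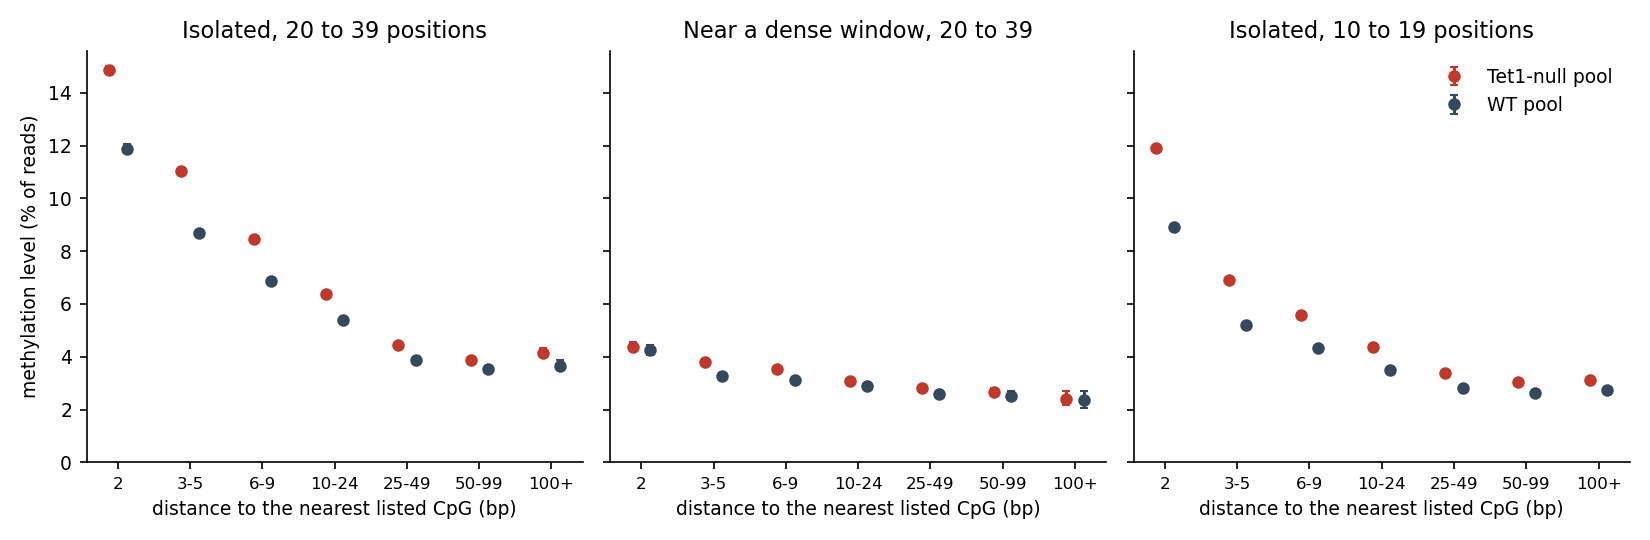
Methylation level (percent of reads) of CpG sites by the distance in bp to the nearest listed CpG, in isolated mid-density windows, windows of the same density near a dense window, and isolated windows of 10 to 19 positions. Points are the Tet1-null pool and the WT pool with Wilson 95% counting intervals. In isolated mid-density windows the levels go down from 14.9% and 11.9% at 2 bp to 3.87% and 3.54% at 50 to 99 bp.

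Mid-density windows stood above their surroundings in both pools. Around single members the level was 4.77% in the Tet1-null pool and 4.04% in the WT pool 1 kb before it in coordinates, and 4.09% and 3.31% at 5 kb before it, against 8.05% and 6.51% in the window itself. The difference between pools was 0.725 points 1 kb away and 1.54 points in the window. Flanking windows held a median of 10 to 11 CpG positions, and single members 22.

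The level of the 5 flanking windows on either side, other members left out, was taken at sites outside the member. A fragment that crosses the edge of the member is counted in both. Members whose flanks were at 2 to 4% were at 4.36% in the Tet1-null pool and 3.08% in the WT pool, a difference of 1.29 points (1.24 to 1.33). Members whose flanks were at 8 to 16% averaged 28.2% and 26.4% of reads, 1.72 points apart (1.37 to 2.07). Beside flanks at 16% or more the order turned, with 40.1% in the Tet1-null pool and 40.6% in the WT pool, a difference of -0.463 points (-0.895 to -0.0323), and those flanks themselves were at 23.0% and 24.1%. The chrM difference, also lower in the Tet1-null pool, was -0.371 points (-0.537 to -0.211), and its part in the small differences was not tested.

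**Figure D4:**
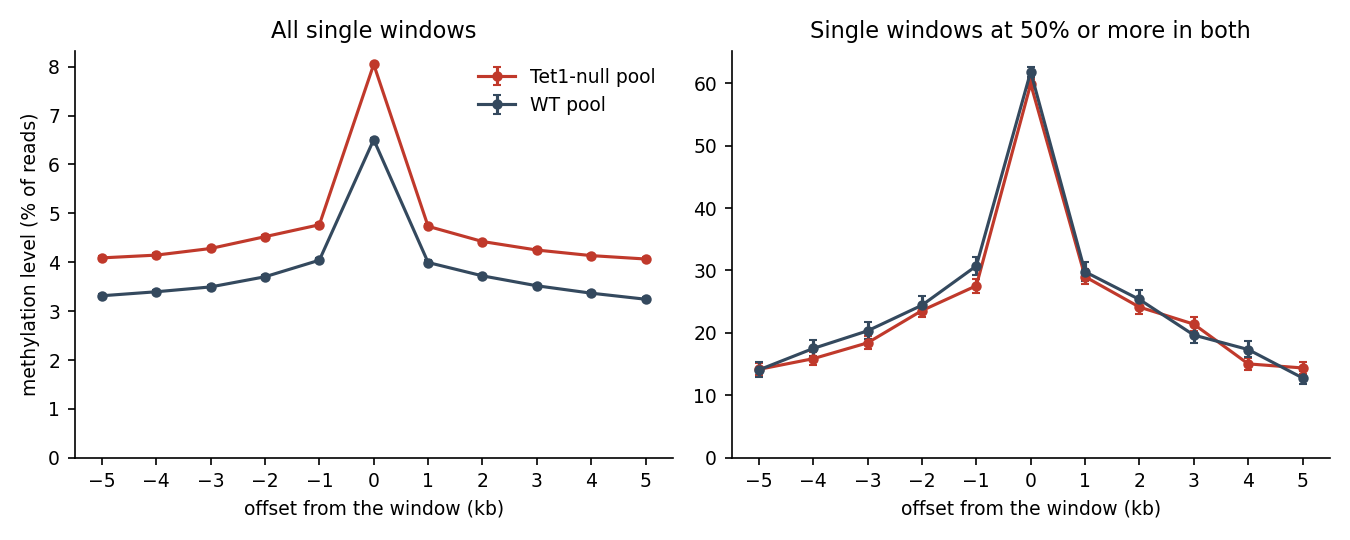
Methylation level (percent of reads) in 1 kb windows from 5 kb before to 5 kb after single member windows, for all 44102 single windows (left) and the 348 tested ones at 50% or more in both pools, chosen by their own level (right; scales differ). Lines are the Tet1-null pool and the WT pool with Wilson 95% counting intervals. At the centre the levels are 8.05% and 6.51% on the left, and 59.9% and 61.8% on the right.

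Single windows could be compared where at least 5 positions were covered in both pools with 20 reads or more in each. This held for 51020 of 62410 members, with a median of 54 reads in the Tet1-null pool and 36 in the WT pool. The 11390 others were more methylated, at 10.5% and 9.70% in Tet1-null and WT, and held 16.5% of the members' reads in the Tet1-null pool but 8.68% in the WT pool. The difference over tested members alone was 1.08 points (1.03 to 1.12), and the mean of their window levels was 6.84% in the Tet1-null pool and 5.74% in the WT pool, a difference of 1.096 points. Both were smaller than the 1.35 points found by summing the reads of all members, as was the difference in the untested members, 0.831 points (0.674 to 0.987). The sum lies above both parts because the untested members, the more methylated part, hold a larger share of reads in the Tet1-null pool. Part of the 1.35 points is therefore a difference in which windows the reads cover.

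The typical member held little methylation, and fewer windows of the Tet1-null pool held none. The median level was 2.56% in the Tet1-null pool and 1.92% in the WT pool, the 90th percentile 19.4% and 15%, and the 99th percentile 57.4% and 59.3%. At the deposited depth the level was higher in the Tet1-null pool in 48.5% of windows, lower in 34.3% and equal in 17.2%. At that depth, a median of 54 reads in the Tet1-null pool and 36 in the WT pool, 32.1% and 46.5% of windows had no methylated read. How far the unequal depth accounts for the count of higher and lower windows was not tested. Since more reads lower the chance of finding none methylated, both pools were brought to 20 reads per window by the exact expectation of drawing without replacement. A read counts once at each site it covers, so the draw equalises counted reads and not fragments. How far a different number of fragments per window accounts for the shares below was not tested. No methylated read was then expected in 53.3% of windows in the Tet1-null pool and 60.0% in the WT pool, 2 to 4 methylated reads in 15.96% and 11.5%, 5 to 9 in 6.38% and 5.05%, and 10 or more in 2.63% and 2.56%. At 16 or more of the 20 the order was the other way, 0.128% in the Tet1-null pool and 0.163% in the WT pool, and at the deposited depth 21 and 38 windows were at 80% or more in Tet1-null and WT.

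**Figure D5:**
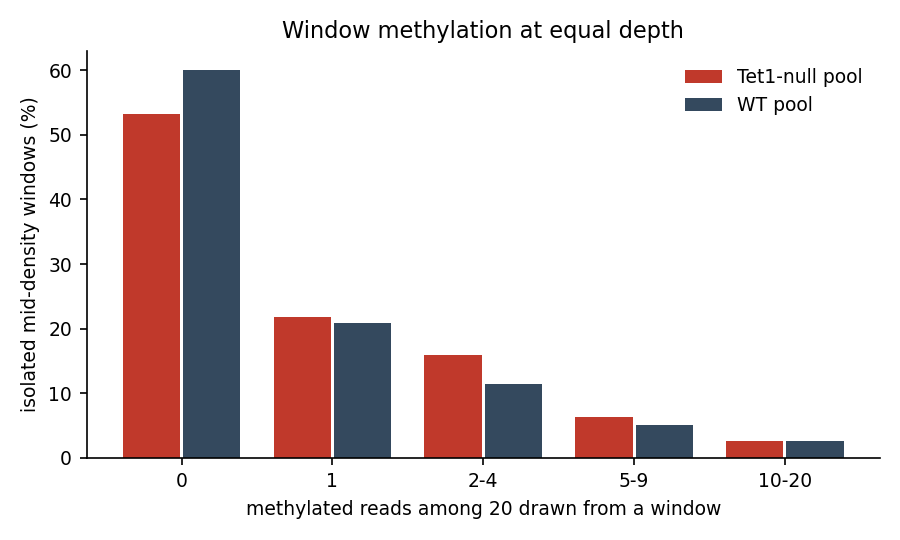
Percent of the 51020 tested isolated mid-density windows by the number of methylated reads expected among 20 drawn from each window, in the Tet1-null pool and the WT pool. Bars are exact expectations and have no error bar. The draw equalises reads counted at each site, not fragments. Fewer windows hold none in the Tet1-null pool, 53.3% against 60.0% in the WT pool, and 10 to 20 are expected in 2.63% and 2.56%.

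Windows at 50% or more were found at nearly the same number in both pools. They numbered 1079 in the Tet1-null pool, 2.11% of tested members, and 1112 in the WT pool, 2.18%, against 0.588% and 0.609% of all 372073 tested windows of the autosomes and the X. Both pools shared 476 of them, 0.933% of tested members against 0.235% of all tested windows, which is 44.1% of the Tet1-null list and 42.8% of the WT list. Read in the pool that did not choose them, the 1079 windows of the Tet1-null list were at 46.2% (WT reads) and the 1112 of the WT list at 46.3% (Tet1-null reads). Their share grew with distance from dense windows, from 0.383% of tested members in both pools at 6 to 10 windows and 0.301% at 11 to 20 to 2.93% beyond 200, and with density, from 0.505% at 20 to 24 positions to 2.34% at 35 to 39.

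Methylation around windows at 50% or more in both pools declined over several kb. Around the 348 such single windows, chosen by their own level, the level 1 kb before was 27.6% in the Tet1-null pool and 30.7% in the WT pool, and 5 kb before it was 14.2% and 14.1%. By the summed reads of both pools, the highest window lay on chromosome 13 from 104737001 to 104738000, with 31 methylated reads of 32 in the Tet1-null pool and 27 of 33 in the WT pool. All 20 of its CpG positions carried a methylated read in the Tet1-null pool, and they lay within 394 bp. The next by the same measure began on chromosome 3 at 90903001 (80% and 87.2% in Tet1-null and WT), on chromosome 12 at 36832001 (90.6% and 65.2%), on chromosome 2 at 123051001 (75% and 82.5%) and on chromosome 14 at 72201001 (79.1% and 79.3%). The WT level on chromosome 12 was the lowest of the 5, and 53 reads there were of the Tet1-null pool against 23 of the WT pool. At the other end, 8677 tested members, 17.0%, had no methylated read in either pool. The deepest of these, on chromosome 4 from 134107001 to 134108000, had 0 of 134 reads in the Tet1-null pool and 0 of 64 in the WT pool, which allows levels of up to 2.24% and 4.69% (3 reads of the total). On chromosome 10 from 115787001 it was 0 of 112 and 0 of 85 reads, and on chromosome 19 from 54935001 it was 0 of 140 and 0 of 47. Upper limits such as 2.24% and 4.69%, here and for windows named below, take the counted reads as independent. A fragment is counted at each site it covers, so the limits are too low where a few fragments cover many sites.

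Fisher's exact test, two-sided, compared the reads of the pools in each of the 372073 tested windows, with Benjamini-Hochberg adjustment over all of them. Calls required both an adjusted p below 0.05 and at least 20 points between the pools. Among isolated mid-density windows 164 were called higher in the Tet1-null pool, 0.321% of those tested against 0.097% of all tested windows, and 94 were called lower, 0.184% against 0.0637%. At an unadjusted p under 0.05 by the same exact test, 2618 members (5.13%, against 2.57% of all tested windows) were higher and 1611 (3.16%, against 1.91%) lower. Members had more reads than the median tested window (54 and 36 in Tet1-null and WT, against 36 and 27), and how far depth accounts for the larger share was not tested. The median level of the windows called higher was 42.1% in the Tet1-null pool and 1.63% in the WT pool, and that of the windows called lower was 2.23% and 45.6%. A second test used sites at least 100 bp apart, with lower minimums of 3 such sites and 10 reads, and called 0 of 24197 members and 0 of 329953 windows by Fisher's exact test. The members then had a median of 16 reads in the Tet1-null pool and 13 in the WT pool, and the totals of 71.5% of them could have given a call had all reads been methylated in 1 pool and none in the other. At an unadjusted p under 0.05 by that exact test, 87 members (0.360%, against 0.179% of all windows so tested) were higher and 85 (0.351%, against 0.255%) lower. Whether fewer reads or fewer sites per fragment account for the lost calls was not tested.

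The 5 largest rises had few reads at any 1 site. Among the rises the window on chromosome 7 from 124259001 to 124260000 came first, with 35 methylated reads of 44 in the Tet1-null pool and 2 of 27 in the WT pool (Fisher's exact test, adjusted p = 2.51e-05). The 35 methylated reads lay at 17 sites between 124259524 and 124259779, none covered by more than 3 reads, and in the WT pool both methylated reads lay at 1 site. A fragment is counted at each site it covers, so these reads can come from few fragments, while the test takes them as independent. Further large rises lay on chromosome 1 at 24075001 (70% in the Tet1-null pool and 0% of 24 reads, which allows up to 12.5%, in the WT pool), on chromosome 12 at 65767001 (71.1% and 9.09%), on chromosome 5 at 145183001 (65.4% and 4.55%) and on chromosome 11 at 53050001 (81.1% and 21.7%). In those 5 windows no site had more than 4 reads in either pool.

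Among the falls, sites of up to 7 reads were present. First came the window on chromosome 7 from 25345001 to 25346000, with 1 methylated read of 45 in the Tet1-null pool and 15 of 20 in the WT pool (Fisher's exact test, adjusted p = 1.39e-05). Those 15 lay at 15 sites within 72 bp, each covered by 1 read in the WT pool. The smallest adjusted p among the named windows was on chromosome 7 from 85292001 to 85293000, with 0 methylated reads of 116 in the Tet1-null pool, which allows up to 2.59%, and 29 of 47 in the WT pool (Fisher's exact test, adjusted p = 1.49e-15). The 29 methylated reads lay at 15 sites within 53 bp, from 85292195 to 85292247, at most 2 reads deep. The remaining falls began on chromosome 17 at 56937001 (0% of 35 reads, which allows up to 8.57%, in the Tet1-null pool and 68.2% in the WT pool), on chromosome 9 at 19567001 (8.33% and 76.2%) and on chromosome 5 at 43889001 (7.69% and 70%). Over all 258 called members the deepest site held a median of 5 reads in the Tet1-null pool and 4 in the WT pool, against 6 and 4 over all tested members, so called windows were close to the rest in this. A fragment that covers several sites enters the test once for each.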

How the data were processed

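Per the file headers, the authors deposited 1 table per genotype, with the methylation level of each CpG site as a fraction. As deposited, a further column holds whole numbers, read here as the count of reads at the site. Multiplying them gave whole methylated reads for 100% of sites (tolerance 0.0005 per read). The submitters' processing notes name build mm9 and bedtools. The aligner and the handling of duplicates are not stated in those notes or the headers. One deposited script removes reads whose C bases outside CpG exceed 1.2% of the read, a filter that can lower levels. Positions are printed counted from 1, reading the tables as BED.

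Reads were summed per 1 kb window with pandas 2.3.3 and numpy 2.4.6 under Python 3.11.15; scipy 1.17.1 gave the tests and matplotlib 3.10.9 the figures. Levels carry Wilson and differences Newcombe 95% intervals, and differences of differences binomial ones. Without molecular identifiers, PCR copies may be counted as separate molecules. Fisher's exact test was chosen because the tables hold reads and no replicates, and it was tested on simulated data with independent reads. Density undercounts positions with no read; 197 isolated windows listed in 1 pool only were left out. Windows named are the 5 largest rises and falls among called members, the 5 highest by reads of both pools together among those at 50% or more in each, the 5 longest runs and the 3 deepest with no methylated read, chromosome 18 left out. Members, comparisons and tests were chosen with earlier results of these data known. The analyses by distance to a dense window, CpG spacing, flank level, depth, density class, untested members and deepest site were added after seeing values.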

Additional observations from a re-analysis of the deposited data

How the results depend on the processing

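No paired analysis was possible because the tables pool each genotype's libraries, and for that reason no library could be left out. Depth limits single windows, with a median of 54 reads per tested member in the Tet1-null pool and 36 in the WT pool. Under the alternatives, 65 values or counts stayed inside the main counting interval or within 1.5 times the count, 30 values moved, 22 counts were smaller, 3 were larger and 1 value reversed. Counts were compared as they stand, without scaling to the number of members tested. The causes of the others were not tested except where the construction shows it, and the level difference (1.35 points) kept its direction in each. The count of autosomes under alternatives and the mean over all members were added after seeing the data.

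The level difference was 1.41 points with isolation over 10 windows, 1.28 at 25 to 39 positions, 1.26 where both pools had reads, 1.40 where both had at least 3, 0.807 on sites 100 bp apart, 1.25 as a mean of site levels and 1.201 as a mean of window levels over all members. The mean window difference (1.096) became 1.16 at sites in both pools, 0.854 on sites 100 bp apart and 1.15 with at least 10 reads. The excess over windows near islands (1.05) became 0.967 with 10 windows, 1.13 at 25 to 39 positions, 0.928 at sites in both pools, 0.576 on sites 100 bp apart, 0.888 at 3 or more reads and 0.937 as a mean of site levels. The excess over windows of 10 to 19 positions (0.487) became 0.543, 0.417, 0.211 on sites 100 bp apart, 0.558 and 0.430 with 10 windows, 25 to 39 positions, spaced sites, 3 or more reads and site means in that order.

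Counting density from positions listed in both pools changed the class itself: it held 15656 windows, of which 6326 had 40 or more positions listed in either pool. Its level difference was 0.267 points, higher in the Tet1-null pool on 16 autosomes, the mean window difference 0.522 and the excess over windows near islands 0.264, and the excess over windows of 10 to 19 positions reversed to -0.652. It had 57 windows called higher and 35 lower, and 215 in Tet1-null, 236 in WT and 115 in both pools at 50% or more.

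Some alternatives tested fewer members than the 51020 of the main setting, so their smaller counts are not smaller shares as such. At 25 to 39 positions 17950 members were tested. Of these, 79 and 44 were called higher and lower, and 631 in Tet1-null, 655 in WT and 309 in both were at 50% or more. On sites 100 bp apart, with minimums of 3 sites and 10 reads, 24197 members were tested. Of these, 0 and 0 were called, and 176, 191 and 51 were at 50% or more. With at least 40 reads, 16612 members were tested, 57 were called lower, and 273, 293 and 126 were at 50% or more. Over the tested members of the main setting, 21, 38 and 2 were at 80% or more, and 5023, 4266 and 3429 at 20% or more. At the deposited depth the share with no methylated read was 32.1% in the Tet1-null pool and 46.5% in the WT pool. Single windows made up 71.8% of members with 10 windows and 79.1% at 25 to 39 positions; their rise was 1.61 points with 10 windows, and that of runs 0.508 at 25 to 39 positions. For the 10 named called windows, the 16 alternatives in which they could be tested kept the call. Of these, 10 set the minimum at 10 reads and 1 at 40, which changes the adjustment but not the reads of the window. The other 5 used a part of the same reads, at sites covered in both pools. The kept calls are therefore no independent check. None of the named called windows had enough sites 100 bp apart.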
